A study of Drosophila melanogaster with 18 samples.

Results

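The comparison described here is that of orb2-delta-zz with wild type in the youngest embryos of the series, collected 0 to 1 hours after egg laying. It holds 3 libraries of each genotype, 6 of the 18 in the series. Total RNA was taken from whole embryos of the fruit fly Drosophila melanogaster and depleted of ribosomal RNA. Wild type was the w1118 strain, which the labels name as the control before injection, and orb2-delta-zz carries an allele of orb2 named for loss of the ZZ domain. How many edited lines were used, and whether the 3 libraries of a genotype came from separate egg collections, was not given in the sources used here. The p-values therefore measure only the spread between these libraries, which may be technical. Of 7617 genes listed, the 7559 that averaged a normalized count of at least 10 across the 6 libraries were tested.

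An embryo of this age is supplied almost wholly with RNA that the mother placed in the egg, since its own genes are largely silent until later nuclear divisions. That RNA encodes the machinery of rapid mitosis, translation and patterning, and its stability and translation are set by RNA-binding proteins and by the length of the poly(A) tail. Orb2 is one such protein, of the CPEB family, and its ZZ domain is a zinc-binding fold at the end of the protein. A difference in maternally loaded RNA at this age can arise in the ovary as well as in the embryo, and RNA of whole embryos cannot tell these apart.

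The defining transcripts of the fresh egg were abundant in both genotypes. The mean level of osk, which organises the germ plasm, was 970 TPM in wild type against 1030 TPM in orb2-delta-zz, and that of nanos, the posterior determinant, was 744 and 783 TPM. The anterior determinant bcd was at 122 and 125 TPM. None of the 3 was called, with limma adjusted p of 0.581, 0.699 and 0.906. Of 23 yolk protein and eggshell genes of the follicle cells, 0 were among the genes tested. Across genes, on the log2 scale, Pearson's r was 0.9902 to 0.9937 within a genotype and 0.9612 to 0.968 between genotypes. The deposited values do not reveal how many reads lie behind a library.

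The gene orb2 itself lies on chromosome 3L and overlaps CG43783 on the same strand. Its normalized counts were 2900, 2698 and 2916 in wild type against 2156, 2388 and 2133 in orb2-delta-zz. All orb2-delta-zz libraries lay below all wild type libraries, with a difference of -0.35 on the log2 scale (SE 0.058, limma adjusted p = 0.00233). The value is a sum over all of orb2 and does not isolate the removed domain, so it cannot check the genotype labels.

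Differences were many and mostly small. Of the genes tested, 21.3% were called (limma, Benjamini-Hochberg adjusted p under 0.05), with 11.2% higher in orb2-delta-zz and 10.1% lower. The 3 libraries of one genotype lay entirely on one side of the other 3 for 38.9% of genes, above for 20.1% and below for 18.9%. On TPM, transcript abundance corrected for length, 756 genes were called higher and 418 lower, against 844 and 766 on normalized counts. Of the 1610 called genes, 1295 differed by less than 2-fold. The other 315, which are 4.17% of those tested, differed 2-fold or more. They were 151 higher (2%) and 164 lower (2.17%), and 75 differed 8-fold or more. The larger differences lay among scarce transcripts. Of 539 genes with a mean level of 1 to under 5 TPM, 22.4% were called at 2-fold or more, against 1.1% of 3814 genes at 20 to under 100 TPM and 0.26% of 1926 genes at 100 TPM or above.

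**Figure D1:**
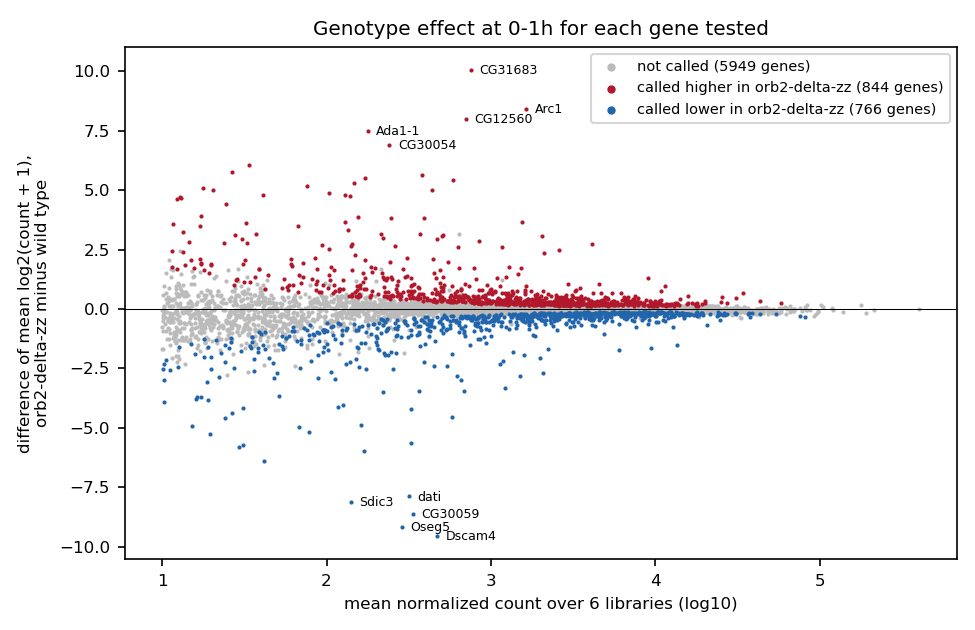
Difference of mean log2(normalized count + 1), orb2-delta-zz minus wild type (3 libraries each), against the log10 of the mean normalized count over the 6 libraries, 1 point per gene tested. Red points are the 844 genes called higher and blue points the 766 called lower. Differences of several log2 units lie among genes of low to middling count, and names mark the 5 largest rises and the 5 largest falls under the naming rule. For 6 genes at 0 throughout wild type and 6 at 0 throughout orb2-delta-zz the plotted difference depends on the count of 1 added before the log.

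Genes with a mean count of 2000 or more and large differences came from unrelated functions. The gene su(w[a]), an SR-family splicing regulator on the X chromosome, had normalized counts of 1071, 1067 and 1075 in wild type against 7189, 7251 and 6959 in orb2-delta-zz. It rose by 2.73 on the log2 scale (SE 0.0415, limma adjusted p = 4.85e-10), with groups far apart and little spread within either. Drep1, of the DNA fragmentation factor family, had counts of 654.6, 691.2 and 739.7 in wild type against 3288, 3659 and 3628 in orb2-delta-zz, a rise of 2.34 (SE 0.0664, limma adjusted p = 2.93e-08). Lztr1, a substrate adaptor of Cullin 3 ubiquitin ligases, rose by 3.07 from counts of 452.9, 401.5 and 450.6 to 3727, 3655 and 3611 (SE 0.0642, limma adjusted p = 4.34e-09). The planar polarity gene dgo rose by 1.07, from a mean of 1896 ± 119 to 3977 ± 81.7 (SD, n = 3 each, limma adjusted p = 9.26e-07). Lztr1 overlaps CG43867 on the same strand and su(w[a]) overlaps several genes, so their reads may not be separable.

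Among the genes at that count that fell, insc, which orients the spindle in dividing neural stem cells, had counts of 3635, 3637 and 3604 in wild type against 549.8, 522.4 and 585 in orb2-delta-zz. The difference was -2.71 on the log2 scale (SE 0.0584, limma adjusted p = 4.34e-09), and it overlaps sktl on the same strand, which was also called. Ptp61F, a tyrosine phosphatase of JAK/STAT signalling, went from 9150, 9345 and 9069 to 2511, 2923 and 3027, a difference of -1.71 on the log2 scale (SE 0.0651, limma adjusted p = 1.73e-07). Acat1, an acetyl-CoA acetyltransferase, fell from 6531 ± 168 to 3199 ± 347 (SD, n = 3 each), by 1.03 on the log2 scale (limma adjusted p = 7.06e-06). The pair of U2 spliceosomal RNA genes snRNA:U2:34ABb and snRNA:U2:34ABa had log2 fold changes of 1.30 and -1.66 (limma adjusted p = 0.00396 and 0.000819). These are near-identical copies, so the way reads were divided between them is uncertain.

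The largest differences were close to presence against absence. CG31683 had counts of 0, 0 and 1.97 in wild type against 1445, 1511 and 1602 in orb2-delta-zz (log2 fold change 10.05, SE 0.408, limma adjusted p = 2.04e-07). Dscam4, a cell surface protein of the Dscam family, had 1024, 918.9 and 887.6 against 0.993, 0 and 0 (log2 fold change -9.55, SE 0.339, limma adjusted p = 1.08e-07). Both overlap genes on the opposite strand, and the rule by which they were named required that the genotypes not overlap. Among the 12 largest rises under the naming rule, CG30054 had counts of 2.16, 2.26 and 5.22 in wild type against 504.5, 456.5 and 478.5 in orb2-delta-zz, a difference of 6.91 on the log2 scale (SE 0.311, limma adjusted p = 4.3e-07). CG17470 had 8.74, 15.9 and 19.2 in wild type against 648, 813 and 778.4 in orb2-delta-zz, and CG5096, which shares its strand and position with gny, had 35.7, 23.4 and 20.6 against 1188, 1171 and 1088. CG30054, CG17470 and CG5096 have no assigned name. The pseudogene CR43214 and CG14219, both on X, were listed at 0 in all wild type libraries and at 52.5 to 84.4 and 45.2 to 67.2 in orb2-delta-zz. CR43211, a pseudogene near CR43214 on the same strand, went the other way. It had 31, 74.4 and 71.1 in wild type and was listed at 0 throughout orb2-delta-zz. How reads were divided between CR43214 and CR43211 was not tested, so their separate values are uncertain. CG31274 was less even, with counts of 0, 0 and 213.4 in wild type against 225.3, 258.3 and 332.4, and its call (limma adjusted p = 0.0463) was lost in 6 of 13 alternatives.

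Of the 12 largest falls, dati, a zinc finger transcription factor gene on chromosome 4, had counts of 610.2, 651.6 and 631.1 in wild type against 0.804, 1.57 and 3.07 in orb2-delta-zz (log2 fold change -7.89, SE 0.325, limma adjusted p = 2.22e-07). Fas3, a cell adhesion protein of the septate junction, had 141, 112.7 and 201.5 in wild type against 3.75, 1.02 and 6.01 in orb2-delta-zz (log2 fold change -5.19, SE 0.486, limma adjusted p = 6.28e-05). Neto, an auxiliary subunit of glutamate receptors, was at 78.4, 87 and 85.4 in wild type but listed at 0 throughout orb2-delta-zz. Sdic3, a sperm dynein intermediate chain, was at 243.8, 283.9 and 317.3 in wild type but listed at 0 throughout orb2-delta-zz. Sdic3 belongs to a cluster of near-identical copies, so its reads may be shared. CG13982 went from 334.6 ± 10.1 to 5.05 ± 3.69 and the non-coding gene CR32010 from 632.7 ± 33.2 to 21.4 ± 27.5 (SD, n = 3 each), the last with 1 orb2-delta-zz library at 53.1 and the others at 7.55 and 3.57.

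**Figure D2:**
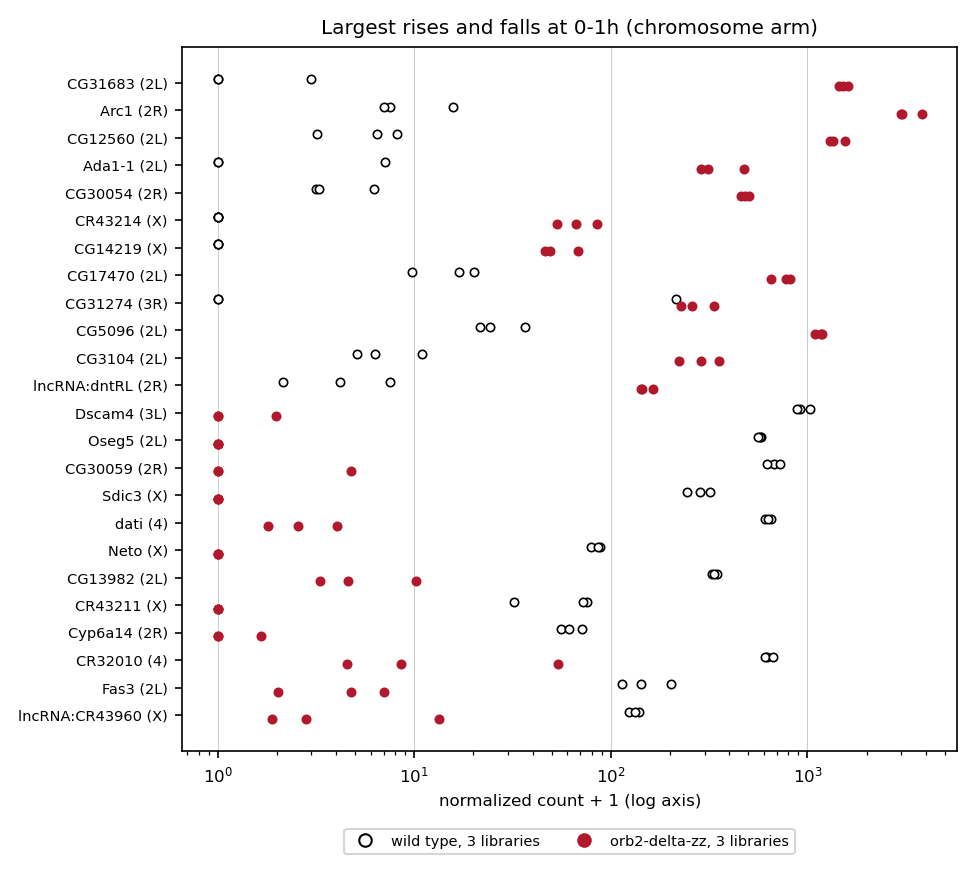
Normalized count + 1 on a log axis for the 12 largest rises (upper rows) and the 12 largest falls (lower rows), with the chromosome arm in brackets. Open circles are the 3 wild type libraries and red circles the 3 orb2-delta-zz libraries. The rule that chose these genes required that the groups not overlap. For CG31274 the wild type library at 213.4 lies next to the lowest orb2-delta-zz library at 225.3.

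The maternal RNA was then described by 37 lists of genes, which together held 1210 genes tested. The lists were grouped mostly by function and were written with earlier results of these data known. That of the Arc and Ada1 paralogs, with 5 of 6 called, was selected after those results. Of these, 17.9% were called and 2.73% were called at 2-fold or more, against 21.9% and 4.44% of the 6349 genes in no list. Among 33 lists with 10 or more members tested, 10 had a share called above the 21.3% of all genes. Genes known only by a CG or CR number had 23.4% called and 5.32% at 2-fold or more, against 20.4% and 3.69% of genes with other symbols. Of 28 pseudogenes tested 11 were called (39.3%), 9 of them at 2-fold or more (32.1%), against 21.3% and 4.17% of all genes. Pseudogenes were scarce, with a median level of 4.49 TPM. Of 539 genes at 1 to under 5 TPM, 34.7% were called and 22.4% at 2-fold or more.

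**Figure D3:**
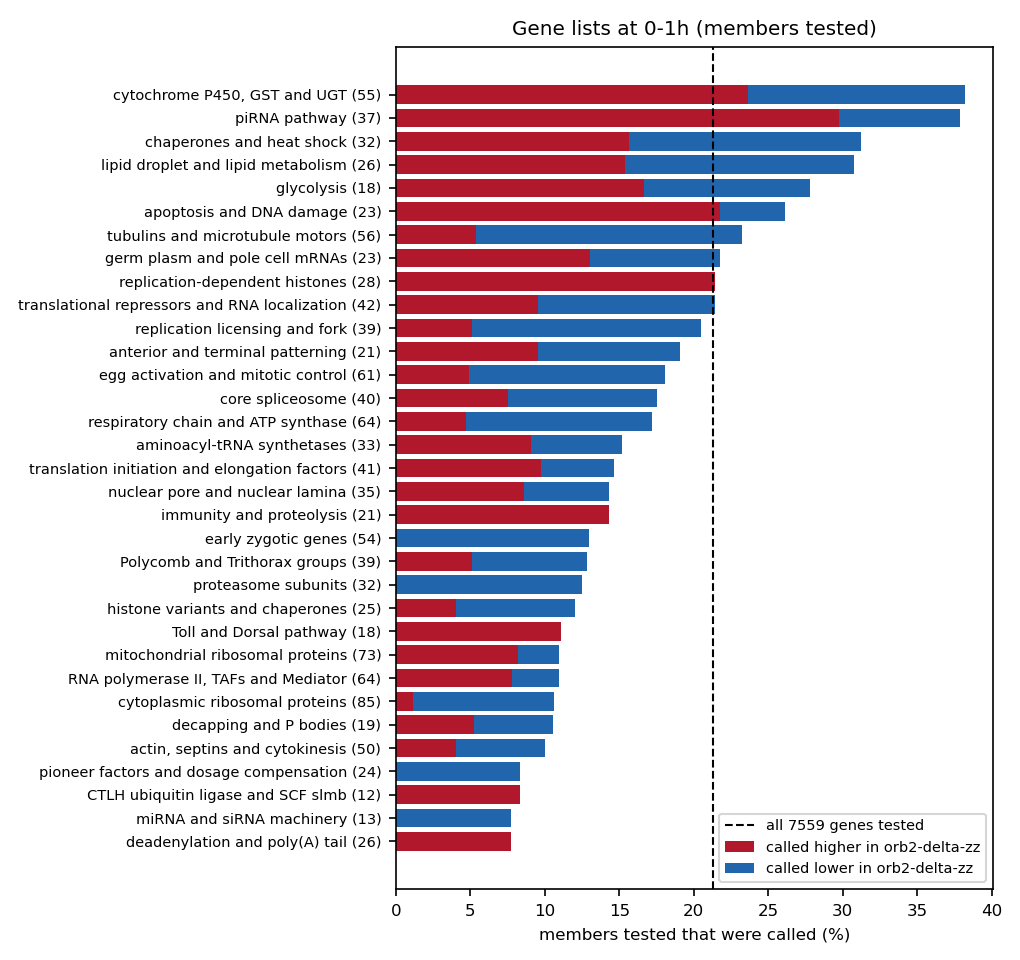
Share of the members tested that were called, for each list with 10 or more members tested, whose number stands in brackets. Red bars are members called higher and blue bars members called lower in orb2-delta-zz, stacked, and the dashed line is the 21.3% called among all 7559 genes tested; the detoxification list (38.2%) and the piRNA pathway (37.8%) lie highest and the deadenylation list (7.69%) and the miRNA and siRNA machinery (7.69%) lowest.

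The piRNA pathway, which uses small RNAs bound to PIWI proteins to silence transposons in the germ line, had 11 members called higher and 3 lower of 37 tested, or 37.8% against 21.3% of all genes. The median log2 fold change of all its tested members was 0.049, against -0.008 over all genes. Most of these calls were small, and 1 reached 2-fold. That was moon, a germline transcription factor that starts transcription within piRNA clusters, with counts of 293.3, 363.7 and 318.8 in wild type against 1963, 1819 and 2221 in orb2-delta-zz. Its groups were far apart, with a difference of 2.62 on the log2 scale (SE 0.101, limma adjusted p = 1.81e-07). It lies within Ten-a and the lncRNA CR43960 on the opposite strand, both of which fell.

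The PIWI proteins themselves were all called higher. The nuclear silencer piwi had counts of 7833, 7874 and 8553 in wild type against 13390, 13951 and 13196 in orb2-delta-zz, a 1.67-fold difference (log2 fold change 0.74, SE 0.047, limma adjusted p = 5.22e-06). The cytoplasmic slicer aub had 3038, 3107 and 2992 against 4136, 4162 and 3991 (log2 fold change 0.43, SE 0.0408, limma adjusted p = 6.88e-05). For both genes every orb2-delta-zz library exceeded every wild type library. Its partner in piRNA amplification AGO3 rose by 0.19 (limma adjusted p = 0.0303), and the helicase vas, which acts with them, by 0.33 (limma adjusted p = 0.000438). The Tudor domain genes krimp and tapas rose by 0.15 and 0.16, Gasz, an anchor on mitochondria, by 0.22, mael by 0.17 and wcd by 0.33. Because tapas overlaps MED8, also called higher, on the opposite strand, their reads may not be separable.

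Members of 1 piRNA complex did not all move together. The RNA export relative nxf2 rose by 0.29 (limma adjusted p = 0.000363), whereas Panx, with which its protein works in nuclear silencing, fell by 0.26 (limma adjusted p = 0.00423). Hen1, the methyltransferase that protects the ends of piRNAs and siRNAs, fell by 0.42 (limma adjusted p = 0.00424) and squ by 0.31 (limma adjusted p = 0.0148). The cluster factors rhi and cuff had log2 fold changes of 0.11 and 0.37 that did not pass (limma adjusted p = 0.192 and 0.0926), and del one of 0.13 (limma adjusted p = 0.0503). Over the alternatives the number of members called ranged from 8 to 15.

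Detoxification enzymes had the highest share of 2-fold calls among lists of 10 or more members. Cytochrome P450 enzymes oxidise foreign and endogenous compounds, and glutathione S-transferases (GST) and UDP-glycosyltransferases (UGT) attach soluble groups to them. Of 55 tested members, 13 were called higher and 8 lower, 38.2% against 21.3% of all genes, and 14 were called at 2-fold or more, 25.5% against 4.17%. The list had a median level of 14.9 TPM, against 51.7 TPM for all genes. Among all genes, shares called were also higher at 1 to under 20 TPM. The share called was not higher under 1 TPM, at 17.1% of 550 genes, with 15.3% at 2-fold or more. Of 730 genes at 5 to under 20 TPM, 30.5% were called and 8.63% at 2-fold or more. Of 539 genes at 1 to under 5 TPM, 34.7% were called and 22.4% at 2-fold or more.

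Among the conjugating enzymes that were called, those at 2-fold or more rose. GstE1 had counts of 35.1, 28.3 and 32.2 in wild type against 434.4, 508.8 and 446.5 in orb2-delta-zz, a difference of 3.82 on the log2 scale (SE 0.159, limma adjusted p = 2.34e-07). Ugt50B3 had 113.6, 112.2 and 92 against 962.8, 963.8 and 812.2, an 8.62-fold difference (log2 fold change 3.10, SE 0.125, limma adjusted p = 2.04e-07). In both the groups were separated by several times their spread. Ugt36E1, Ugt35A1, GstE3, GstT3 and GstE7 rose by 2.86, 2.59, 2.10, 1.53 and 1.32 on the log2 scale (limma adjusted p = 9.82e-08, 3.03e-07, 0.00887, 1.63e-05 and 0.000134). GstS1 fell by 0.19 (limma adjusted p = 0.00969).

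The P450 genes were divided. Cyp6a14 had counts of 70.1, 54.8 and 60.3 in wild type against 0, 0.663 and 0 in orb2-delta-zz (log2 fold change -5.72, SE 0.536, limma adjusted p = 6.28e-05), and Cyp6d2 had 56.6, 78 and 42.5 against 4.79, 0 and 4.71 (log2 fold change -4.18, limma adjusted p = 0.0025). Both were thus near absent from orb2-delta-zz. Cyp6a17 fell by 2.67 and Cyp310a1 by 2.28 (limma adjusted p = 1.85e-05 and 0.00328). In the opposite direction, Cyp6a9, Cyp6a20 and Cyp317a1, which are neighbours on chromosome 2R among the genes tested, rose by 2.74, 2.63 and 3.48 (limma adjusted p = 6.12e-06, 4.74e-05 and 0.000154). Cyp6a19 fell by 0.20, from 28788, 30263 and 28192 to 24853, 24629 and 26713 (limma adjusted p = 0.0262). These families hold close paralogs, so reads may be divided among them unevenly. Cyp317a1 also overlaps Kank on the opposite strand, which was called higher as well.

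**Figure D4:**
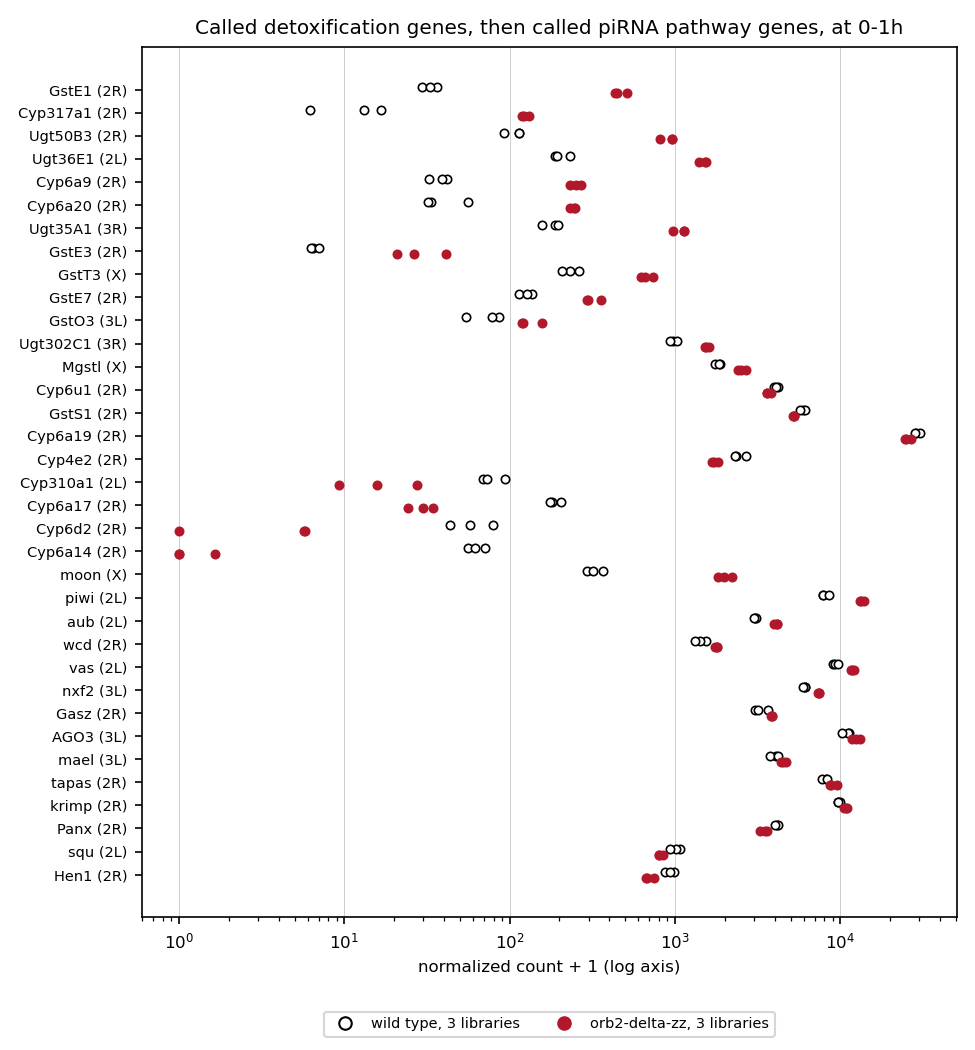
Normalized count + 1 on a log axis for the 21 called detoxification genes (upper rows) and the 14 called piRNA pathway genes (lower rows), each ordered from the largest rise to the largest fall, with the chromosome arm in brackets. Open circles are the 3 wild type libraries and red circles the 3 orb2-delta-zz libraries; the detoxification genes spread over several log units, while of the piRNA genes only moon is separated by more than 2-fold.

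Chaperones had 5 members called higher and 5 lower of 32, or 31.2%. The rises were led by copies of the heat-inducible Hsp70. Hsp70Ab had counts of 892.3, 724.1 and 697.6 in wild type against 3409, 4474 and 5286 in orb2-delta-zz (log2 fold change 2.49, SE 0.147, limma adjusted p = 3.18e-06). Hsp70Aa had 97.2, 120.5 and 111.2 against 360, 438.2 and 722.4 (log2 fold change 2.14, limma adjusted p = 0.000149), and Hsp70Bbb rose as well (limma adjusted p = 0.00657). Hsp70Bb, another copy, was at 21.3 ± 4.45 and 15.3 ± 13.6 (SD, n = 3 each) and did not pass (limma adjusted p = 0.391). The copies are nearly identical in sequence, so their separate values are uncertain. The small heat shock genes split, with Hsp26 and Hsp22 up by 0.48 and 0.41 and Hsp27 down by 0.24 (limma adjusted p = 0.000284, 0.0031 and 0.00696). Hsc70-1, a scarce member of the same family, had counts of 16.6, 14 and 23 against 2.75, 1.05 and 3.13 (log2 fold change -2.55, limma adjusted p = 0.0135). Hsp68 fell by 1.04 (limma adjusted p = 0.000424), and Gp93 and Hsc70-3, chaperones of the endoplasmic reticulum, by 0.18 and 0.19 (limma adjusted p = 0.013 and 0.0429). Hsp83 had a log2 fold change of 0.16 that did not pass (limma adjusted p = 0.245).

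Lipid genes had 4 members called higher and 4 lower of 26, or 30.8%. SREBP, the transcription factor that drives lipid synthesis, had counts of 5731, 5516 and 5466 in wild type against 7864, 8186 and 7953 in orb2-delta-zz (log2 fold change 0.52, SE 0.0391, limma adjusted p = 1.43e-05). Its escort SCAP rose with it, from 6250, 5904 and 6170 to 8703, 9155 and 9054 (log2 fold change 0.55, SE 0.0411, limma adjusted p = 1.32e-05). Desat1, a fatty acid desaturase, rose by 0.23 (limma adjusted p = 0.0142). The lipid droplet proteins Jabba and Lsd-1 fell by 0.19 and 0.88 (limma adjusted p = 0.0328 and 0.0181), and klar, which regulates droplet transport, by 0.27 (limma adjusted p = 0.011). In glycolysis 3 of 18 members were called higher and 2 lower; Pfk, a control point of the pathway, rose by 0.27 and Tpi fell by 0.39 (limma adjusted p = 0.00192 and 0.000394).

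The translation machinery had shares called of 10.6% to 15.2%. Of 85 cytoplasmic ribosomal protein genes, 1 was called higher and 8 lower, 10.6% against 21.3% of all genes, with a median log2 fold change of -0.086 and 66 members below 0. The falls were of 0.16 to 0.29, as in RpS20 (log2 fold change -0.29, limma adjusted p = 0.0433). The exception was RpLP2, a protein of the ribosomal stalk, with counts of 26024, 29517 and 23968 in wild type against 38624, 39067 and 49176 in orb2-delta-zz (log2 fold change 0.67, SE 0.103, limma adjusted p = 0.00157). With single libraries left out, 2 to 13 of these genes were called, the 2 without either wild type replicate 1, orb2-delta-zz replicate 1 or orb2-delta-zz replicate 2, 3 without wild type replicate 2 and the 13 without orb2-delta-zz replicate 3. The genotypes overlapped in the median deviation of the list from the wild type mean, which was -0.038, 0.12 and -0.09 in the wild type libraries and -0.12, -0.13 and 3.8e-05 in the orb2-delta-zz libraries. RpS20 lost its call in 6 of 13 alternatives. Initiation and elongation factors had 4 called higher and 2 lower of 41, the largest rise being 0.32 on the log2 scale. Of 33 aminoacyl-tRNA synthetases, 3 were called higher and 2 lower, led by HisRS with 4797 ± 179 in wild type against 7636 ± 142 in orb2-delta-zz (SD, n = 3 each, log2 fold change 0.67, limma adjusted p = 4.43e-06). HisRS overlaps Bx, also called, on the same strand.

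Nuclear genes for mitochondrial proteins showed single large differences. Of 73 mitochondrial ribosomal proteins, 6 were called higher and 2 lower, or 11% against 21.3% of all genes, with 13 higher and 2 lower on TPM. Among them mRpL14 went from 282.2, 286.7 and 319.3 to 1062, 879.5 and 1031 (log2 fold change 1.74, SE 0.0986, limma adjusted p = 2.47e-06). Of 64 genes of the respiratory chain and ATP synthase, 3 were called higher and 8 lower, or 17.2%, with 6 higher and 7 lower on TPM. Cyt-c-p, the main cytochrome c, went from 4906, 5742 and 5375 to 3157, 3118 and 3488 (log2 fold change -0.71, SE 0.0654, limma adjusted p = 5.67e-05). COX5B, of cytochrome c oxidase, fell by 0.59, and ox, of complex III, by 0.92 (limma adjusted p = 0.00269 and 0.000901). Of 32 proteasome subunits 4 were called, all lower, or 12.5%, against 1 higher and 1 lower on TPM and a single call without the trend, with the replicate number as a block or without orb2-delta-zz replicate 2. The strongest was Prosbeta5 at -0.30 on the log2 scale (limma adjusted p = 0.00193).

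Regulators of maternal RNA, the class to which orb2 belongs, had few large differences. Of 42 translational repressors and RNA localization factors, 4 were called higher and 5 lower, 21.4% against 21.3%. After bol, which fell by 0.87 (limma adjusted p = 0.00476), the strongest was egl, the adaptor that links RNA to dynein, with counts of 8718, 8719 and 8839 in wild type against 6326, 6276 and 5867 in orb2-delta-zz (log2 fold change -0.51, SE 0.0417, limma adjusted p = 2.69e-05). BicD, its partner, rose by 0.24 (limma adjusted p = 0.004). The central repressors smg, pum and cup had log2 fold changes of -0.038, -0.047 and 0.02 that did not pass (limma adjusted p = 0.74, 0.559 and 0.835). Deadenylation and poly(A) factors had 2 called of 26, both higher, namely Not11, of the CCR4-NOT complex, and CstF50, of cleavage and polyadenylation, with rises of 0.51 and 0.24 (limma adjusted p = 0.00365 and 0.0418). In decapping, DCP1 rose by 0.22 and Smg5 fell by 0.18 (limma adjusted p = 0.0206 and 0.0296), the only calls among 19. DCP1 lost its call in 5 and Smg5 in 7 of 13 alternatives, and CstF50 in 7.

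Germ plasm and anterior and terminal patterning genes had 21.7% and 19% called. Of 23 germ plasm genes, 3 were called higher and 2 lower, with pgc, which silences transcription in pole cells, up by 0.33 and capu, an actin nucleator needed to localise osk, down by 0.30 (limma adjusted p = 0.0079 and 0.0125). Of 21 anterior and terminal genes, 2 were called in each direction. The terminal receptor tor fell by 0.21 and the MAP kinase rl rose by 0.33 (limma adjusted p = 0.0221 and 0.00414). The outlier was tsl, which is made by follicle cells of the ovary, with counts of 43.8, 55.6 and 41.9 in wild type against 0, 0.778 and 3.33 in orb2-delta-zz (log2 fold change -4.59, SE 0.629, limma adjusted p = 0.000737). In the Toll pathway lwr, the SUMO-conjugating enzyme, rose by 0.67 and Myd88 by 0.27 (limma adjusted p = 7.75e-06 and 0.0265), the only calls among 18. Of 13 alternatives, tor lost its call in 5 and Myd88 in 7.

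On normalized counts most called cell cycle genes were lower, a balance that did not hold on TPM. Egg activation and mitotic control had 3 called higher and 8 lower of 61, or 18% against 21.3% of all genes, but 3 higher and 2 lower on TPM and 2 in each direction with the replicate number as a block. The gene cort, a meiotic activator of the anaphase-promoting complex, had counts of 2508, 2400 and 2520 in wild type against 4397, 4476 and 4696 in orb2-delta-zz, a 1.83-fold difference (log2 fold change 0.87, SE 0.0447, limma adjusted p = 1.16e-06). The mitotic kinase gene Cdk1, fzy, another activator of that complex, and the condensin genes glu and SMC2 fell by 0.22, 0.16, 0.24 and 0.15 (limma adjusted p = 0.0414, 0.0227, 0.022 and 0.0317). In replication, 2 were called higher and 6 lower of 39 (2 and 1 on TPM), led by Cdc7, the kinase that fires origins, from 11612, 12047 and 12206 to 8398, 8299 and 8046 (log2 fold change -0.54, SE 0.0398, limma adjusted p = 1.35e-05). The helicase subunits Mcm7, Mcm5 and dpa fell by 0.18, 0.14 and 0.17 (limma adjusted p = 0.0202, 0.0393 and 0.012). Tubulins and microtubule motors had 3 called higher and 10 lower of 56 (2 and 1 on TPM), among them Grip71, Grip91 and Grip163 of the gamma-tubulin ring, down by 0.45, 0.19 and 0.20 (limma adjusted p = 6.48e-05, 0.00776 and 0.0299).

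Chromatin and transcription lists were mostly below the 21.3%. Of 39 Polycomb and Trithorax genes 5 were called, and 0 to 9 under the alternatives, the strongest being Su(z)2, which fell by 0.73 (limma adjusted p = 0.00946). Of 24 pioneer and dosage compensation factors 2 were called, both lower, and 0 to 6 under the alternatives, and zld, the activator of early zygotic genes, had a log2 fold change of -0.13 that did not pass (limma adjusted p = 0.301). MED8, a Mediator subunit, rose from 507.7, 452.5 and 480.4 to 1163, 1148 and 1130 (log2 fold change 1.26, SE 0.0719, limma adjusted p = 2.54e-06). It was 1 of 7 called among 64 genes of RNA polymerase II, its general factors and Mediator. MED8 overlaps tapas, also called, on the opposite strand. Sf3b3, of the U2 particle, was the strongest spliceosome gene, from 24598, 26553 and 25349 to 15519, 16154 and 15644 (log2 fold change -0.69, SE 0.0459, limma adjusted p = 6.7e-06). Of 28 replication-dependent histone genes 6 were called, all higher, or 21.4% against 21.3% of all genes. Without orb2-delta-zz replicate 3, 5 were called higher and 2 lower. Their summed normalized count overlapped, at 588916 to 692355 in wild type against 552131 to 653592 in orb2-delta-zz. These are repeated copies whose reads cannot be assigned with certainty.

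The early zygotic genes, which the embryo itself transcribes first, lay mostly below 0. Of 54 tested, 7 were called, all lower, or 13% against 21.3% of all genes, while 53 had a log2 fold change below 0 and the median was -0.56. The count was 4 on TPM, 3 without the trend or without wild type replicate 1, 2 without orb2-delta-zz replicate 2 and 12 without orb2-delta-zz replicate 1, all lower. The called genes were Tom, wg, sog, Bro, tld, scw and Sxl, of which wg lost its call in 7 and sog in 5 of 13 alternatives. Tom, of the Bearded family, had counts of 495.8, 700 and 527.9 in wild type against 297.3, 155.7 and 352.9 in orb2-delta-zz (log2 fold change -1.16, SE 0.267, limma adjusted p = 0.0132). The median deviation of the list from the wild type mean was 0.27, -0.029 and -0.16 in the wild type libraries and -0.22, -0.80 and -0.59 in the orb2-delta-zz libraries, so the genotypes did not overlap but orb2-delta-zz replicate 1 lay close to wild type replicate 3. The summed normalized count overlapped, at 27394 to 31655 in wild type against 23831 to 29106 in orb2-delta-zz. These genes were scarce, with a median level of 2.33 TPM. Scarce genes in general had medians below 0, at -0.49 under 1 TPM and -0.16 at 1 to under 5 TPM. The shift was not seen later: the median log2 fold change of the list was 0.28 at 1-2h and -0.068 at 2-3h, with 0 genes called at either time. Of the late embryo genes 4 passed the filter, with elav, a neuronal marker, down by 1.27 and GstE1 up as given above (limma adjusted p = 0.0131 for elav). The part that these zygotic values have in the other differences was not tested.

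Called genes were unevenly spread over the chromosomes. On chromosome 3, which carries orb2, 444 of 3237 genes tested were called, or 13.7%, against 1151 of 4263, or 27%, on X, 2 and 4 together. The share was 13.7% on both 3L and 3R, 25.3% on X, 27.5% on 2L, 27.6% on 2R and 35.6% on chromosome 4, where 73 genes were tested. At 2-fold or more the shares were 1.95% on chromosome 3 and 5.79% on X, 2 and 4. Median levels were alike, at 51.8 and 51.6 TPM. Among genes of 20 to under 100 TPM the shares called were 11.9% and 25.9%. With each library left out in turn they were 8.3% to 13.8% on chromosome 3 and 19.1% to 27.1% elsewhere. The separate collections of 1-2h and 2-3h had 3.58% against 10.2% and 1.2% against 4.91%, where the backgrounds were 7.37% and 3.28%.

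The share was also taken near orb2. Within 2 Mb of orb2, 34 of 259 genes were called, or 13.1%, against 13.8% of the 1182 other genes of 3L. The lists followed the same division, with 11.7% of their 520 members on chromosome 3 called and 22.6% of their 690 members elsewhere. Of the detoxification list, 3 of 18 members on chromosome 3 were called and 18 of 37 elsewhere. Of the piRNA pathway, 3 of 13 were called on chromosome 3 and 11 of 24 elsewhere. Chaperones went the other way, with 9 of 21 called on chromosome 3 and 1 of 11 elsewhere, and the early zygotic medians were alike at -0.55 and -0.57. The orb2 allele and any other difference between the strains cannot be told apart in this design.

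**Figure D5:**
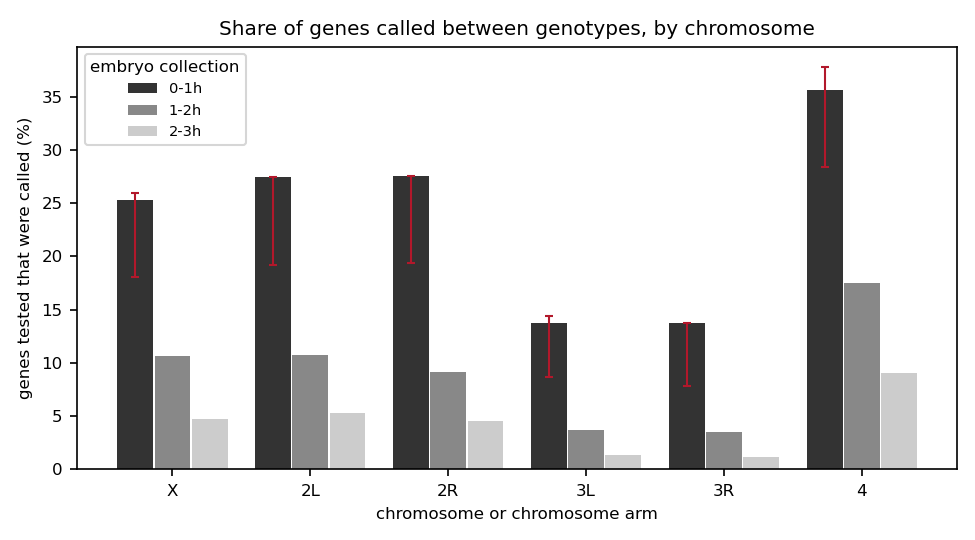
Share of the genes tested on each chromosome or arm that were called between orb2-delta-zz and wild type, at 0-1h (dark), 1-2h (grey) and 2-3h (light), with 3 libraries per genotype and time. Red lines span the lowest to the highest share at 0-1h when each library was left out in turn; at every time the bars of 3L and 3R are lower than those of X, 2L, 2R and 4.

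Large differences also lay next to each other. Of 310 genes called at 2-fold or more that have a position, 91 had another such gene as a direct neighbour among the genes tested, or 29.4%, against 7.93% of all 7500. There were 8 runs of 3 or more, and their genes are named after their values were seen. On 2R, Cyp6a9, Cyp6a20, Cyp317a1 and Kank all rose, the last from 25.7 ± 3.42 to 855 ± 79.9 (SD, n = 3 each, log2 fold change 5.01, limma adjusted p = 5.43e-08). Kank and Cyp317a1 overlap on opposite strands, so their reads may not be separable. On X, Ten-a, a teneurin of synapse formation, fell from 2196 ± 101 to 239.7 ± 112 (SD, n = 3 each, log2 fold change -3.33, limma adjusted p = 6.69e-05), together with lncRNA:CR43960 and Muc11A within it, while moon on the opposite strand rose. On 2L, Tsp26A, asRNA:CR43866 and CG9098 all rose, and elsewhere on X, CG42346, lncRNA:CR43656 and CG34334 all fell. The remaining runs were mixed, as at CG33474, which fell by 2.46, beside Prx6b, which rose by 1.64 (limma adjusted p = 0.012 and 0.000602).

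Most called genes kept the sign of their difference an hour later, but fewer were called again. At 1-2h, in other libraries of both genotypes, 303 of 307 genes called at 2-fold or more at 0-1h had the same sign. Of these 307, 204 (66.4%) were called again, where 7.37% of all genes were called. For the smaller calls it was 1231 of 1295 with the same sign and 272 (21%) called. At 2-3h 262 of 297 of the larger calls kept their sign and 107 (36%) were called. For the smaller calls it was 995 of 1289 and 64 (4.97%), where 3.28% of all genes were called. The share of all genes that kept their sign was not taken. The median of the early zygotic list changed sign at 1-2h, as given above. Among the genes above, moon was higher at 1-2h by 2.30 and GstE1 by 3.75 (limma adjusted p = 0.00242 and 5.98e-05), while piwi, at 0.42, no longer passed (limma adjusted p = 0.126).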

How the data were processed

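Embryo RNA of 2 genotypes was measured at 0-1h, with the 1-2h and 2-3h libraries used for comparison. Libraries were made with a strand-specific kit after rRNA depletion, per the labels' protocols. The submitters' processing notes name Trim Galore 0.6.5, Salmon 1.9.1 and DESeq2 1.42.1. The genome build, the annotation and any use of strand in counting were not given in the sources used here. The authors deposited normalized counts per gene and library (a signal scaled by library) and TPM. Only 34.7% to 61.9% of low values in a library were whole within 0.1, where 95% was required. Depth is therefore unknown and count tests were not used. Symbols and positions came from the Ensembl annotation of BDGP6.54 by FlyBase identifier, for 7557 of 7617 genes.

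The genotype test was two-sided, from limma 3.58.1 (trend method, run in R 4.3.3), on log2 of the normalized count with 1 added, adjusted by Benjamini-Hochberg over 7559 genes at 0.05. Fold changes on that scale are too small for low genes. Differences between 1-2h and 0-1h were tested in a joint limma fit of 12 libraries. The fits were tested on simulated data. Members, lists and naming rules were chosen with earlier results of these data known. Genes named were orb2, the 12 largest rises and falls with a mean of 50 or more in a genotype and no overlap between groups, the 6 largest each way with a mean of 2000 or more, and up to 3 called members per list with the largest change. Not every gene that the rule names is described. All other genes named were chosen after their values were seen. Lists were given no test. Alternatives covered the pseudocount, the filter, trimmed mean rescaling, TPM, the trend, the replicate number as a block and each library left out. Same-numbered libraries of the genotypes showed no shared deviation from their group means, with r of 0.025, -0.061 and 0.004 across genes. These values cannot tell whether such libraries were collected or prepared together. No pair of libraries held identical values. Plots used Python 3.11.15 and matplotlib 3.10.9.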

Additional observations from a re-analysis of the deposited data

Results flagged for a closer look

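The genotype effect differed between 1-2h and 0-1h for 15 of 7533 genes, or 0.199%, by a test of the difference itself in a joint fit of 12 libraries (limma adjusted p under 0.05). Differences below are the log2 fold change at 1-2h minus that at 0-1h. The effect at 0-1h became smaller for 5 genes called higher at 0-1h: Lztr1 by -1.44, CG18304 by -2.46, Kank by -1.96, CG9344 by -1.53 and Pvr by -2.03. The other 10 genes were not called at 0-1h. CG6180 was at 7273 ± 686 in wild type against 7117 ± 277 in orb2-delta-zz (SD, n = 3 each) at 0-1h, and at 12895, 9494 and 9792 against 2036, 2071 and 2067 at 1-2h, a difference of -2.34. CG18476, CG12096, Nost and Fnta also moved lower, by -1.51, -0.85, -0.67 and -0.62. CG4935, Tgt, CG9577, CCT4 and GstE11 moved higher, by 1.18, 1.45, 1.65, 0.67 and 0.88.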

How the results depend on the processing

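Of the 126 genes named by the rule, 87 kept their call in every alternative run for them at 0-1h, of 13 in all, 39 lost it in at least 1 and 0 reversed. The 1610 calls became 1648 with a pseudocount of 10, 1619 without a filter, 1532 with a mean of 50 or more, 1606 after trimmed mean rescaling and 1218 without the trend. With the replicate number as a block, 1160 genes were called (602 higher and 558 lower) and the difference between 1-2h and 0-1h was called for 6 genes in place of 15. On TPM 418 genes were called lower and 183 at 2-fold or more, and 6 differed between times; the cause was not tested. Leaving out single libraries gave 1092 to 1616 calls, 582 to 844 higher, 488 to 772 lower, 260 to 332 at 2-fold or more and 7 to 12 lists above the background. The 488 came without wild type replicate 1. The genes that differed between times ranged from 8, without orb2-delta-zz replicate 3 of 0-1h, up to 40 (without wild type replicate 2 of 1-2h). Depth is unknown, so no limit by counting error is given.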
